A study of Mus musculus with 6 samples.

Results

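Cell cycle and DNA replication genes were examined as a group of 47 genes whose promoter chromatin was compared between the proximal tubules of sham-operated mice and of mice that had lost 1 kidney. The 47 were listed by name among 21938 protein-coding genes, by a rule that uses no measured value, and fall into 12 genes of G1 control, 16 of DNA replication, 15 of mitosis and 4 inhibitors. For each gene the strongest peak of accessible chromatin whose summit fell 1 kb or less from one of its transcription starts in GENCODE M21 (GRCm38) was taken in each of 6 peak lists. With the lists cut to equal length, 45 of the 47 genes had such a peak in all 6, and Ccnd2 and Rrm2 had none in any.

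Cells leave the resting state when D-type cyclins with CDK4 and CDK6, and then cyclin E with CDK2, phosphorylate the retinoblastoma family and release E2F factors. E2F factors switch on the genes of DNA replication, among them the MCM helicase subunits that are loaded in G1 and the polymerase clamp PCNA. Genes of mitosis follow later under the MuvB complexes with B-MYB and FOXM1, which act through the CHR element and neighbouring CCAAT boxes, the latter bound by NF-Y. The epithelium of the adult kidney divides rarely, and the kidney left behind after nephrectomy grows mainly by enlargement of its proximal tubule cells. The promoters of cell cycle genes can be open in cells that do not divide, so an open promoter is not a measure of transcription or of division.

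The libraries were made by ATAC-seq, in which the Tn5 transposase cuts and tags accessible DNA. Wild-type male C57BL/6 mice aged 7 weeks had a sham operation (Sham, 3 libraries) or a unilateral nephrectomy by surgical excision (UNx, 3 libraries). The tubules were dissected by hand from the first segment of the proximal tubule, and the titles give 24 h for both groups. Each library was made from 3 short tubules lysed and transposed together. The labels do not say whether the libraries of a group came from separate mice, so the p-values measure the spread between these libraries only, which may in part be technical. The deposited values are peaks called separately in each library, with no read counts, so the depth behind each value is unknown.

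The lists held 77355 to 100999 distinct peaks, fewest in Sham 2, and their median −log10 q ran from 12.1 in Sham 2 to 26.5 in UNx 3. Each list was therefore reduced to its 77355 strongest peaks, and each gene is given as the percentile rank of its best promoter peak by −log10 q, where 100 is the strongest peak of the list and 0 stands for no peak. Over the genes tested, the ranks of 2 libraries correlated with r of 0.890 to 0.944 within groups and 0.883 to 0.914 between groups, across genes that are not independent replicates. The markers of the labelled segment were open: 10 of 10 genes of S1 proximal tubule had a promoter peak in all 6 lists, with mean percentiles of 86.6 to 89.7 in Sham and 88.3 to 89.1 in UNx. The 5 immune genes, Ptprc and Csf1r among them, had no promoter peak in any list. For 3 lists of markers the mean percentiles of the groups did not overlap: the 5 endothelial markers averaged 5.04 to 7.95 in Sham and 0 to 0.879 in UNx, the 5 markers of the S3 segment 20.2 to 30.3 and 8.17 to 17.0 (Slc7a13 at 0 in all lists), and the 5 stromal markers 13.8 to 17.1 and 10.8 to 13.2 (Pdgfrb, Acta2 and Tagln at 0 in all lists). The 5 podocyte markers averaged 32.4 to 39.4 in Sham and 37.7 to 44.4 in UNx, and the 7 markers of the loop, distal tubule and collecting duct 33.5 to 36.6 and 31.9 to 35.1, with no peak at Slc12a3, Aqp2 or Atp6v1g3. The part of these other cell types in the values of the cell cycle genes was not tested, and in a bulk library fewer cells of a type cannot be told apart from less accessible chromatin per cell.

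The promoters themselves show the elements named above. The 6 stretches below run from 180 bases before to 30 bases after the RefSeq start (GRCm38.p6), 5′ to 3′ on the gene's strand. Mcm2, Ccnb2, Cdkn1a and Plk1 are shown because they had the largest differences, in either direction, among the genes whose groups did not overlap. Mcm6 is shown for the most E2F-type octamers of any of these genes, and Cdk1 as the mitotic promoter with all 3 kinds of element. Capitals mark E2F-type octamers (TTTGGCGC, TTTGCCGC, TTTCGCGC or TTTCCCGC), the CHR element (TTTGAA) and the CCAAT box (CCAAT), each on either strand, and in Cdkn1a, which has none of these 3, the GC box (GGGCGG).
Mcm2: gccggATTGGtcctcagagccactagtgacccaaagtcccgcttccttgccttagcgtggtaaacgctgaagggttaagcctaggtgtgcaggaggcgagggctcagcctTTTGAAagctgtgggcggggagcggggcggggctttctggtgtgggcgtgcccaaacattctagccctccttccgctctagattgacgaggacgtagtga
Mcm6: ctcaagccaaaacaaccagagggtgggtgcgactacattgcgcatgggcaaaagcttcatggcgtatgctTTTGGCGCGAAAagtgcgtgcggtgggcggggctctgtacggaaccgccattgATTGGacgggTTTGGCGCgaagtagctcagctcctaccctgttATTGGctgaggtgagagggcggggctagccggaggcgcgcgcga
Plk1: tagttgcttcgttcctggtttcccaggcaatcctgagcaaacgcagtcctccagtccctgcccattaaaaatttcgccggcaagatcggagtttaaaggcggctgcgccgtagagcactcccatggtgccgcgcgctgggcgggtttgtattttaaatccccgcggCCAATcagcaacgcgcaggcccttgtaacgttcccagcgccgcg
Ccnb2: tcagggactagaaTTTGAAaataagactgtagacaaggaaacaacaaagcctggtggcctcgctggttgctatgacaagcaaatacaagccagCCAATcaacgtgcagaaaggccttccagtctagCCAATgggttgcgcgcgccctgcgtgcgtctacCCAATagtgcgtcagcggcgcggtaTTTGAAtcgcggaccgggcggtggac
Cdk1: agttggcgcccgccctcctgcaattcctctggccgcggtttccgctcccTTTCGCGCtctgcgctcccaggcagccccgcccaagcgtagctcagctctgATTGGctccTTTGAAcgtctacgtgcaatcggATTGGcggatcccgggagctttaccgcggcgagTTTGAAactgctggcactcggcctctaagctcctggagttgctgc
Cdkn1a: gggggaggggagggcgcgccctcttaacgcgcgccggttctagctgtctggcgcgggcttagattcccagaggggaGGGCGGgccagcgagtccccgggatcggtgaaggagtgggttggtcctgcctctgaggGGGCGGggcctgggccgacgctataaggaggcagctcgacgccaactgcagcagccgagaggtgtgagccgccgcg
These lie at chr6:88898751-88898960, chr1:128359676-128359885, chr7:122159255-122159464, chr9:70421525-70421734, chr10:69352883-69353092 and chr17:29093589-29093798, with Plk1 and Cdkn1a on the plus strand and the others on the minus strand.

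In these sequences Mcm6 carried 3 E2F-type octamers, of which 2 overlap on opposite strands at 110 and 106 bases before the start and the third begins 47 bases before it. Ccnb2 carried 3 CCAAT boxes at 87, 54 and 21 bases before the start and a CHR element 5 bases after it, with a further CHR 167 bases before it. Cdk1 combined 1 E2F-type octamer with 2 CHR elements, at 71 and 15 bases before the start. Plk1 had a CCAAT box 14 bases before the start, and its CHR begins at base 31 after the start, just past the stretch shown. Mcm2 held no E2F-type octamer of these 4 spellings, and did hold a CHR 70 bases before the start.

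Counted over RefSeq promoters of 250 bases before to 50 after the start, E2F-type octamers and CHR elements were unevenly spread over the classes. GC boxes were common in every class, from 75% of replication promoters to 100% of inhibitor promoters. The classes are small, from 3 inhibitor promoters to 12 each for replication and mitosis. Of the 45 genes tested, 36 had a RefSeq promoter entry, and of all 13300 genes tested 10410 did. An E2F-type octamer stood in 12 of 36 cell cycle promoters (33.3%) and in 4.07% of all. These were 6 of 12 replication genes (Mcm3, Mcm5, Mcm6, Mcm7, Cdc6 and Cdt1) and 4 of 9 G1 genes (Cdk2, E2f2, E2f3 and Cdc25a). The rest were 1 of 12 mitotic genes (Cdk1) and 1 of 3 inhibitors (Rbl1). A CHR stood in 11 of 36 (30.6%) against 10.9% of all, and in 8 of 12 mitotic promoters (66.7%). Outside the mitotic class it stood in E2f3, Mcm2 and Cdc45. All 11 promoters with a CHR also held a CCAAT box, a pairing found in 4.56% of all promoters. CCAAT boxes, with or without a CHR, were in 24 of 36 (66.7%, against 38.4%) and GC boxes in 30 of 36 (83.3%, against 66.6%). E2F-type octamers on opposite strands can overlap, as in Mcm6, and each promoter was counted once per motif. A match is a description of letters and says nothing of binding.

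**Figure D1:**
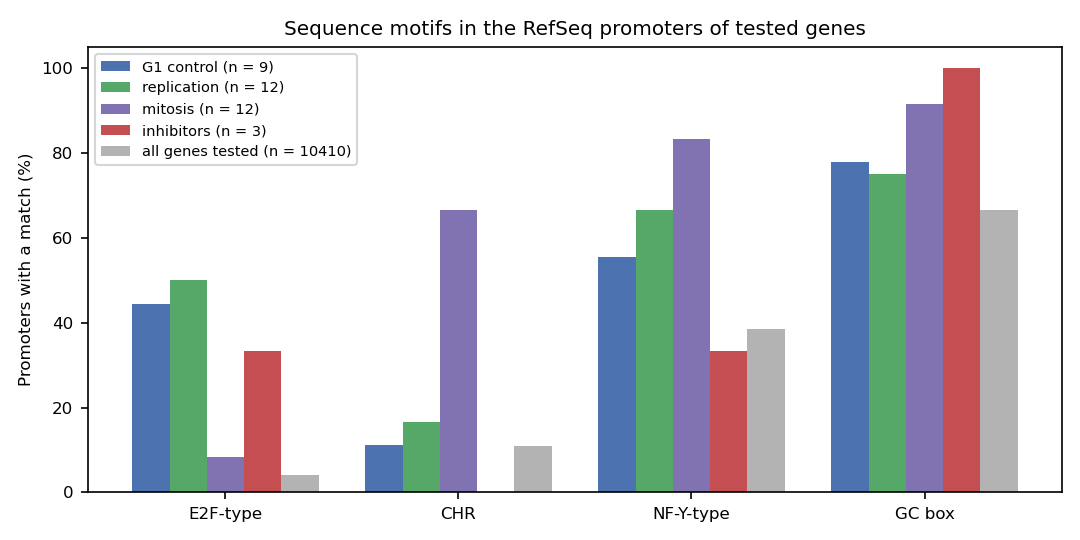
Share of RefSeq promoters (%, y axis) with at least 1 match to each of 4 motifs (x axis: the E2F-type octamers, the CHR, the CCAAT box of NF-Y, and the GC box), as bars for the 4 classes of cell cycle genes and for all genes tested, with the number of promoters in the legend. E2F-type octamers reach 50.0% in the replication class and CHR 66.7% in the mitotic class, against 4.07% and 10.9% of all genes.

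The promoters of the cell cycle genes ranked high in both groups. The median over the 45 genes of the mean percentile was 90.2, against 86.2 over all genes tested, and 23 of 45 (51.1%) lay above the 90th percentile, against 39.8% of all genes. Above the 75th lay 38 of 45 (84.4%), against 69.7% of all genes. By class these were all 15 tested replication genes, 9 of 11 of G1 control, 12 of 15 of mitosis and 2 of 4 inhibitors. In every library the median of the 45 was above that of all genes: 92.3, 91.4 and 91.8 in Sham 1, 2 and 3 against 86.7, 87.2 and 87.0, and 91.0, 87.6 and 89.9 in UNx 1, 2 and 3 against 86.0, 84.8 and 87.8. Genes ranged from a mean percentile of 50.7 for Cdc20, an activator of the anaphase-promoting complex, to 99.7 for the S and G2 phase cyclin Ccna2. Summits lay upstream of the start in 37 of 45 genes and within 250 bp of it in 43. Peaks had a median width of 890.5 bp and a median GC content of 64.2% at the summit, close to the 882.75 bp and 65.8% of all genes tested.

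**Figure D2:**
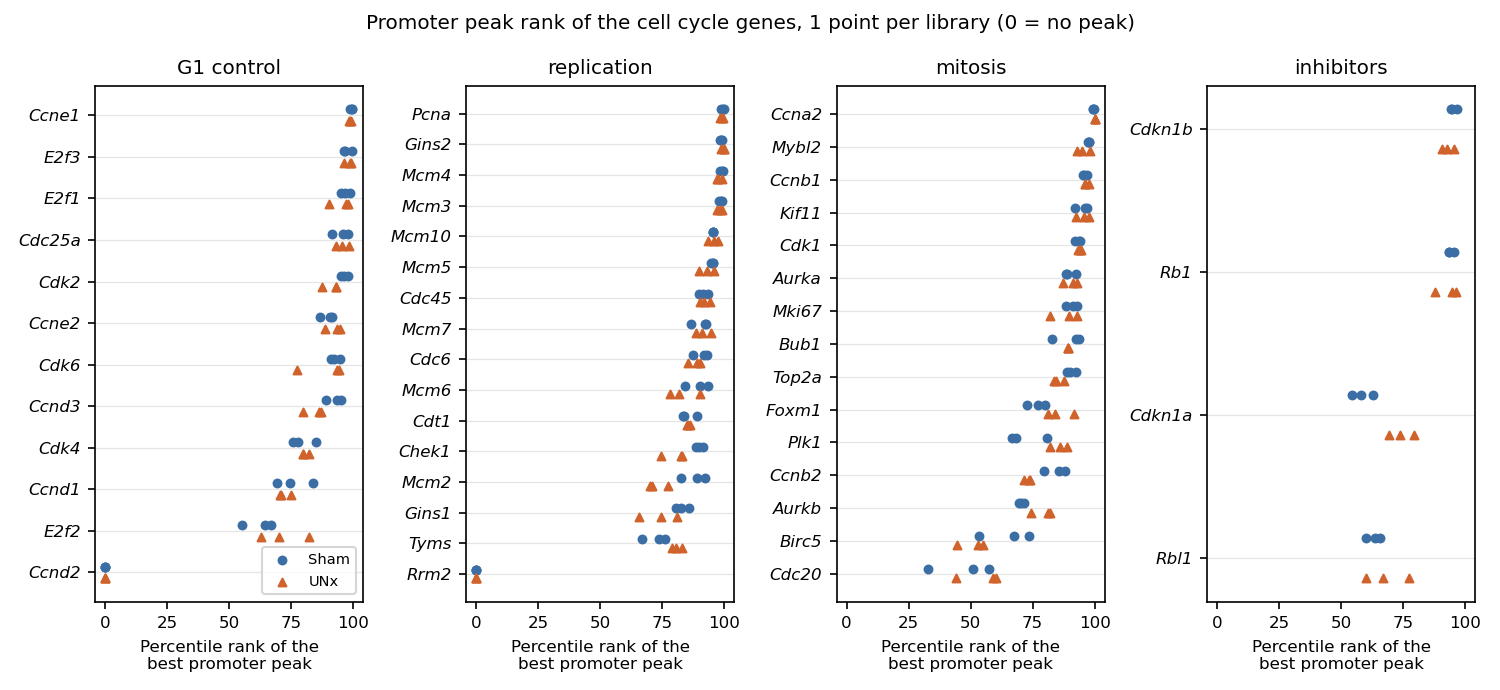
Percentile rank (x axis, 0 to 100) of the best promoter peak of each of the 47 genes (y axis), 1 point per library, circles for Sham and triangles for UNx, in 4 panels by class and ordered by mean. Of the 45 genes with a peak 38 have a mean above 75 (84.4%, against 69.7% of all genes tested). Ccnd2 and Rrm2 sit at 0 in all 6 libraries, and Cdkn1a is the inhibitor whose groups stand apart.

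After nephrectomy no cell cycle promoter passed the test. Differences were fitted with limma over all 13300 genes with a promoter peak in at least 3 of the 6 lists, with Benjamini-Hochberg adjustment and a threshold of 0.05. In that fit 3 genes passed (0.0226%), 1 higher after UNx (0.00752%) and 2 lower (0.015%), and none of the 3 was among the 45. The lowest adjusted p of the 45 was 0.169, for Mcm2. At an unadjusted p under 0.05, limma gave 8 of 45 genes (17.8%), against 13.9% of all genes: Plk1, Foxm1 and Cdkn1a with higher ranks after UNx, and Mcm2, Chek1, Cdk2, Ccnd3 and Ccnb2 with lower ones. Without Sham 2 this count was 4 of 45, where 10.5% of all genes had such a p. Without UNx 3 it was 11 of 45, where 15.7% of all genes did.

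Neither direction prevailed among the 45 genes. The difference, UNx minus Sham in percentile points, was above 0 for 22 and below 0 for 23, with a median of −0.384 against −0.189 over all genes. It was smaller than 5 points in either direction for 29 of 45, and the standard errors ran from 0.389 to 8.54 with a median of 2.61. The 3 UNx values stood entirely above the 3 Sham values in 6 genes (13.3%, against 9.26% of all genes) and entirely below in 6 (13.3%, against 10.6%), together 12 (26.7%, against 19.8%). The higher 6 were Plk1, Cdkn1a, Foxm1, Aurkb, Tyms and Ccna2, and the lower 6 Mcm2, Chek1, Ccnb2, Cdk2, Ccnd3 and Top2a. Fold enrichment from the authors' peak caller also kept the groups apart at Plk1, Cdkn1a, Foxm1, Aurkb, Mcm2, Cdk2 and Ccnd3. It overlapped between the groups at Tyms, Ccna2, Chek1, Ccnb2 and Top2a. By class the medians were −0.584 for G1 control (5 higher, 6 lower), −0.474 for replication (6 and 9), 0.480 for mitosis (9 and 6) and 1.83 for inhibitors (2 and 2). The median of all 45 turned to 0.240 without Sham 1 and to 0.399 without UNx 2, and that of mitosis to −0.421 without UNx 3. That of G1 control turned to 0.257 without Sham 1 and 0.175 without UNx 2, and that of inhibitors was −1.34 without UNx 3 and 5.15 without UNx 2.

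**Figure D3:**
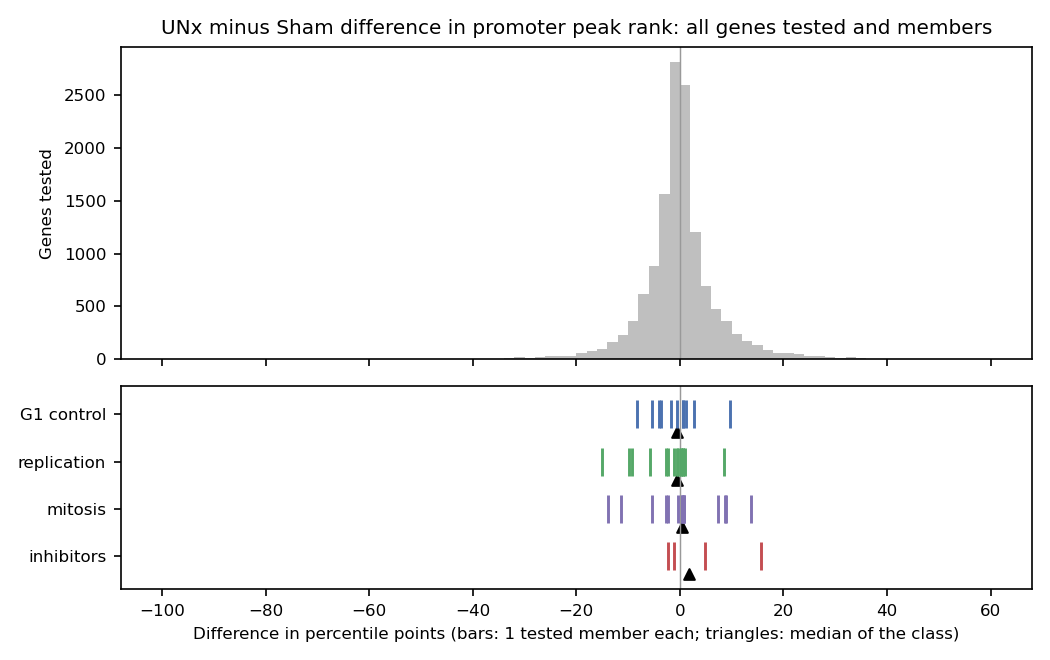
Top, number of genes tested (y axis) by UNx minus Sham difference in percentile points (x axis, bins of 2 points); bottom, 1 vertical bar for each tested cell cycle gene by class, with a triangle at the class median. The 45 genes lie between −15.1 and 15.7 around the same centre as all genes, whose median is −0.189.

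Among the replication genes, the largest difference was at Mcm2, a subunit of the replicative MCM2-7 helicase. Its percentiles were 92.3, 88.9 and 82.7 in Sham 1, 2 and 3 and 70.8, 70.1 and 77.5 in UNx 1, 2 and 3. All 3 UNx libraries lay below all 3 Sham libraries, with a difference of −15.1 ± 4.14 points (SE, limma unadjusted p = 0.00215, adjusted p = 0.169). The fold enrichment given by the authors' peak caller at this peak was 9.18, 7.30 and 6.84 in Sham and 5.79, 5.71 and 6.34 in UNx. The other MCM genes did not share the size of this difference. Mcm6 differed by −5.84 ± 3.64 points, Mcm5 by −2.26 ± 1.72 and Mcm4 by −1.12 ± 0.642, while Mcm3 (−0.474), Mcm10 (0.183) and Mcm7 (0.961) were within 1 point of 0.

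Chek1 encodes the checkpoint kinase CHK1, which restrains the cycle while DNA is incompletely replicated. Its promoter peak ranked at 91.3, 88.6 and 89.8 in Sham and at 83.0, 82.8 and 74.7 in UNx, again with no overlap (−9.75 ± 3.37, limma adjusted p = 0.230). Gins1, a subunit of the GINS complex that joins the MCM helicase and CDC45, ranked at 86.0, 80.6 and 82.8 in Sham and 74.6, 65.6 and 81.1 in UNx. Its groups overlapped through UNx 3 (−9.32 ± 4.62, limma adjusted p = 0.382), and without UNx 2 the difference was −5.24. Gins2, a second subunit of the same complex, stood at means of 98.8 and 99.5 in Sham and UNx. The replication clamp Pcna was among the strongest peaks of every list, at 99.8, 98.9 and 99.7 in Sham and 99.2, 98.5 and 99.5 in UNx, and its groups overlapped (−0.384 ± 0.478, limma adjusted p = 0.746). Tyms, which makes thymidylate, was the replication gene with all UNx values above Sham: 66.8, 73.7 and 76.3 against 80.5, 82.8 and 78.9 (8.44 ± 4.48, limma adjusted p = 0.410).

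Rrm2, the small subunit of ribonucleotide reductase, had no summit near its start in any complete list. The nearest summit lay 17701 to 17746 bp away in the 6 lists, at chr12:24690349-24690766 in UNx 3.

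Of the G1 genes, Cdk2, the kinase partner of cyclins E and A, ranked at 96.1, 97.9 and 95.1 in Sham and 92.9, 92.9 and 87.1 in UNx. The groups did not overlap (−5.41 ± 1.89, limma adjusted p = 0.233), and without UNx 3 the difference was −3.49. Ccnd3, 1 of the 3 D-type cyclins, ranked at 88.9, 94.9 and 93.4 in Sham and 86.1, 79.5 and 86.8 in UNx, with no overlap (−8.25 ± 2.96, limma adjusted p = 0.242). Ranked by the caller's fold enrichment in place of q, the difference at Ccnd3 was −20.0. Ccnd1, the D-type cyclin that responds most to growth factors, spread widely between Sham libraries, at 83.7, 74.4 and 69.2 against 70.3, 74.9 and 70.9 in UNx. Its groups overlapped (−3.72 ± 5.06, limma adjusted p = 0.768).

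The partners of the D-type cyclins and the next cyclin in line gave overlapping groups as well. Cdk4 ranked at 77.6, 84.9 and 75.7 in Sham and 82.3, 79.7 and 79.6 in UNx (1.15 ± 4.04, limma adjusted p = 0.928). Ccne1, which drives entry into S phase with CDK2, ranked at 98.6, 99.2 and 99.6 in Sham and 98.6, 99.0 and 98.1 in UNx (−0.584 ± 0.518, limma adjusted p = 0.642). E2f2, an activating E2F, had the lowest mean rank over the 6 libraries of the 11 G1 genes with a peak, at 66.7, 55.3 and 64.3 in Sham and 62.9, 70.1 and 82.2 in UNx. The UNx range took in 2 of the 3 Sham values (9.63 ± 6.29, limma adjusted p = 0.514), and the difference was 4.41 without UNx 3 and 6.21 without Sham 2. E2f1 and E2f3 stood higher, with Sham means of 96.8 and 97.3 and differences of −1.80 and 0.609.

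Of the mitotic genes, Plk1 encodes a kinase of mitotic entry and spindle assembly. It ranked at 80.9, 66.6 and 68.2 in Sham and at 88.8, 86.2 and 82.0 in UNx. The lowest UNx library lay just above Sham 1, the highest Sham library (13.8 ± 4.63, limma unadjusted p = 0.00910, adjusted p = 0.220). The caller's fold enrichment at Plk1 was 12.9, 8.28 and 10.6 in Sham and 15.4, 14.6 and 13.9 in UNx. Ccnb2, 1 of the B-type cyclins that activate CDK1, went the other way, at 85.4, 88.1 and 79.5 in Sham and 71.4, 73.7 and 73.8 in UNx. Its groups were apart (−11.4 ± 4.16, limma adjusted p = 0.247), and by fold enrichment the difference was −5.06. The RefSeq promoters of Plk1 and Ccnb2, with differences of opposite sign, each hold a CHR and a CCAAT box.

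Foxm1, the transcription factor of late cell cycle genes, ranked at 79.9, 77.2 and 72.9 in Sham and 81.2, 84.0 and 91.7 in UNx. The UNx libraries lay above Sham by a narrow margin (8.98 ± 4.06, limma adjusted p = 0.339), and without UNx 3 the difference was 5.93. The peak is shared with Rhno1, whose start lies 99 bp away on the opposite strand, and it cannot be assigned to either gene. Aurkb, the kinase of the chromosomal passenger complex, ranked at 69.3, 70.3 and 71.4 in Sham and 81.8, 81.1 and 74.4 in UNx (8.77 ± 4.59, limma adjusted p = 0.406). Birc5, a second member of that complex, ranked at 53.5, 73.5 and 67.3 in Sham and 54.9, 44.4 and 53.0 in UNx. Its groups overlapped through Sham 1, and its difference of −14.0 ± 7.25 was opposite in sign to that of Aurkb (limma adjusted p = 0.403).

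Mki67, Cdk1 and Top2a are often used to mark dividing cells. Mki67, whose protein Ki-67 is present in cycling cells, ranked at 91.3, 88.3 and 93.0 in Sham and 93.0, 81.9 and 89.5 in UNx (−2.70 ± 2.95, limma adjusted p = 0.711). Cdk1, the kinase of mitotic entry, ranked at 93.9, 92.1 and 93.6 in Sham and 94.1, 93.3 and 94.5 in UNx (0.774 ± 1.62, limma adjusted p = 0.868). Top2a, the topoisomerase that untangles sister DNA, ranked at 90.03, 88.9 and 92.5 in Sham and 83.4, 84.3 and 87.8 in UNx, with no overlap (−5.32 ± 2.77, limma adjusted p = 0.404). These 3 genes differed among themselves in sign, and none passed the test. Ccna2 held 99.87, 99.30 and 99.34 in Sham and 99.97, 99.95 and 99.92 in UNx, a difference of 0.443 points at the top of the scale.

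Among the 4 inhibitors, Cdkn1a encodes p21, which binds cyclin-CDK complexes and is a target of p53. It ranked at 54.3, 58.0 and 62.6 in Sham and at 69.3, 73.6 and 79.3 in UNx. All UNx libraries lay above all Sham libraries, by 15.7 ± 5.75 points on average, more than at any other of the 45 genes (limma unadjusted p = 0.0146, adjusted p = 0.247). The caller's fold enrichment was 6.40, 5.70 and 7.02 in Sham and 7.13, 8.22 and 8.63 in UNx. With a window of 2.5 kb the difference was 1.53, because a stronger peak 1808 bp downstream of the nearest start was then taken in Sham, at 67.5, 79.7 and 70.5. In UNx 2 a single interval of 2208 bp covered both peaks.

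Cdkn1b, which encodes p27, the inhibitor that holds resting cells out of the cycle, ranked at 94.7, 94.3 and 96.6 in Sham and 90.4, 92.6 and 95.5 in UNx, and its groups overlapped (−2.38 ± 1.71, limma adjusted p = 0.554; −1.15 without UNx 1 and −3.72 without UNx 3). Rb1, the retinoblastoma gene, had means of 94.0 and 92.8. Its relative Rbl1, which encodes p107, ranked at 63.7, 65.8 and 60.03 in Sham and 66.7, 59.9 and 77.4 in UNx (4.85 ± 6.11, limma adjusted p = 0.749), and the difference was 0.179 without UNx 3 and 8.89 without UNx 2. At Rbl1 the position of the strongest summit differed in place of its rank. It lay 16, 10 and 4 bp before the start in Sham and 342, 306 and 333 bp before it in UNx, inside one broad interval of 870 to 1253 bp. Of the 45 genes this was the 1 (2.22%) with summit positions of the groups more than 100 bp apart, against 1.03% of the 12425 genes with a peak in all 6 lists, and it was singled out after its values were seen.

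**Figure D4:**
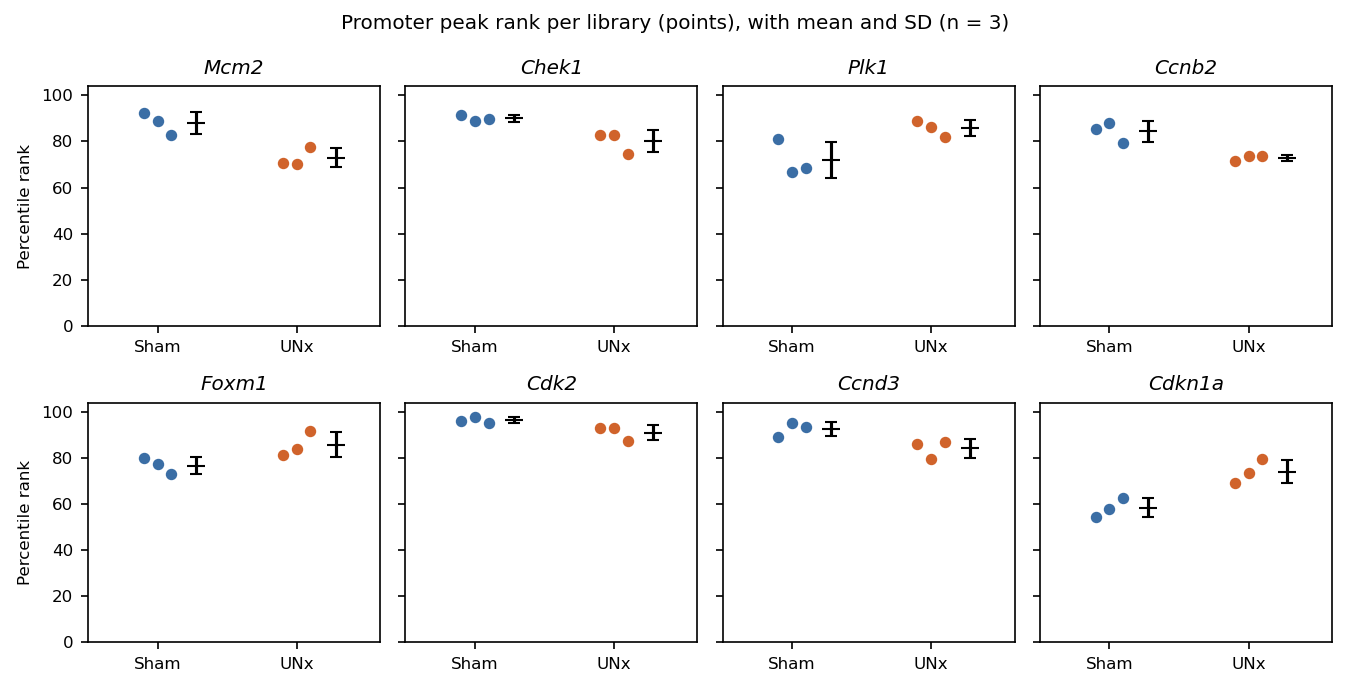
Percentile rank (y axis, 0 to 100) per library in Sham and UNx (x axis) for the 8 genes with an unadjusted p under 0.05, points for libraries and bars for mean and SD (n = 3). The groups do not overlap in any of the 8, with Plk1, Foxm1 and Cdkn1a higher in UNx and the other 5 lower. The 8 were picked by p on these same ranks, so the separation is not further support.

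The D-type cyclins showed further peaks away from the promoter peak used above, and these were chosen for description after their values were seen. For Ccnd2 no list of equal length held a promoter peak, and in the complete lists UNx 3 alone held one, 10 bp from the start with a −log10 q of 5.93. A peak 3112 to 3136 bp inside the gene (chr6:127147696-127148000) was present in all 6 lists, at 59.9, 63.7 and 54.3 in Sham and 30.6, 6.06 and 34.0 in UNx. In a fit over 74781 regions merged across the lists, of which 0.788% passed the adjusted threshold, this region differed by −35.7 points and did not pass (limma adjusted p = 0.0810). Near the most downstream annotated start of Ccnd3, a merged region (chr17:47594118-47595967) ended short of that start, with its strongest summit 770 bp from it. This region ranked at 42.1, 19.4 and 35.6 in Sham and 55.1, 76.5 and 69.9 in UNx. It differed by 34.8 points with no overlap, opposite in sign to the stronger promoter peak of the same gene, and did not pass (limma adjusted p = 0.0629). The peak at the most upstream start, at 49.8 to 57.04 in Sham and 60.5 to 68.2 in UNx, differed by 11.2 points.

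**Figure D5:**
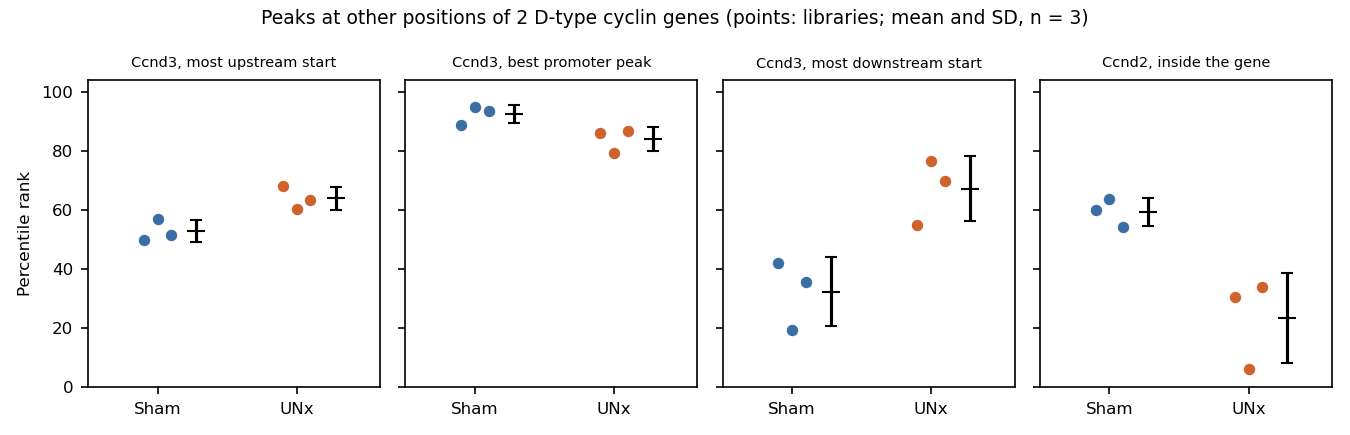
Percentile rank (y axis, 0 to 100) per library in Sham and UNx (x axis) of 3 peaks within 1 kb of annotated starts of Ccnd3 and of 1 peak inside Ccnd2, points for libraries and bars for mean and SD (n = 3). The panel of the most downstream start shows a peak with its summit 770 bp from that start. The best promoter peak of Ccnd3 is lower in UNx, its most downstream peak higher, and the Ccnd2 peak lower in all 3 UNx libraries.

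In the gene bodies and within 1 kb of the gene ends, 62 merged regions in 24 of the 47 genes were tested. None passed the adjusted threshold, and 12 (19.4%) had an unadjusted limma p under 0.05, against 18.6% of all regions. They were split evenly, with 31 higher and 31 lower. The Cdkn1a region among the 62 (chr17:29093482-29095775) also covers its promoter peak. In Rb1 a region 87208 bp from the start ranked at 48.2, 66.8 and 59.6 in Sham and 85.1, 83.5 and 71.4 in UNx (limma adjusted p = 0.0838). In Mcm10, which acts when origins fire, 2 regions inside the gene differed in opposite directions, by 14.7 and −8.16 points (limma adjusted p = 0.0915 and 0.213).

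For 5 of the genes the promoter peak is shared with a neighbour that starts on the opposite strand within 500 bp, and the same peak was the best peak of both genes in all 6 lists. These are Mcm4 with Prkdc, Mcm7 with Ap4m1, Cdc45 with Ufd1, Aurka with Cstf1, and Foxm1 with Rhno1. Of these 5, Foxm1 alone had groups apart, where 19.8% of all genes tested did.

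A longer list of 118 other genes of the cell cycle, from origin recognition to the spindle, gave the same count of 0. Of 116 tested none passed, and 15 (12.9%) had an unadjusted limma p under 0.05 against the 13.9% of all genes. Of these 15, 13 had lower ranks after UNx, and so did 1043 of the 1843 such genes among all tested. In all, 72 were lower and 44 higher (37.9%, against 47.1% of all genes), with a median of −0.455 against −0.189. Groups were apart in 18 (15.5%, against 19.8%), 4 higher (3.45%, against 9.26%) and 14 lower (12.1%, against 10.6%). The higher gene of smallest p was E2f8, an atypical repressive E2F, at 93.0, 91.9 and 90.8 in Sham and 96.3, 96.8 and 96.5 in UNx (limma adjusted p = 0.205). Orc4, of the origin recognition complex, differed by 2.81 points and Mcm9 by −1.21 (limma adjusted p = 0.209 and 0.259).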

How the data were processed

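Chromatin accessibility was measured by ATAC-seq in 3 Sham and 3 UNx libraries, grouped by the labels' titles and treatments. Per the submitters' processing notes, cutadapt 3.4, Bowtie, SAMtools, Picard and MACS2 2.2.7.1 were used with the mm10 build; their order and settings are not given in the sources used here. The deposited lists give, for each summit of each library, a score, a fold enrichment (a ratio) and the −log10 of the p-value and q-value, as the authors' caller wrote them. No coordinate passed the GRCm38 chromosome lengths.

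Summits of 1 interval were joined and the strongest kept, and each list was cut to the 77355 strongest by −log10 q. Starts came from GENCODE M21 basic protein-coding transcripts on chromosomes 1 to 19, X and Y. limma 3.58.1 (trend and robust variance, two-sided) compared percentile ranks over 13300 genes. The same fit was also run on data simulated from the means and variances of these ranks, with an outcome not reported here. Ranks may keep differences in depth between lists, and they compress differences near 100. Named genes are, in each class, the 3 of smallest p, 10 genes set by name, any gene absent from a list, and 2 rises and 2 falls of the longer list, of which 1 is not reported here; others named were chosen after their values were seen. The genes and lists were chosen with earlier results of these data known. Alternatives were other list lengths, windows, rankings, filters, GC correction (lowess on GC within 100 bp of the summit), variance models, replicate blocks and leaving out each library. Counts of reads were not used here.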

Additional observations from a re-analysis of the deposited data

How the results depend on the processing

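No cell cycle gene passed the threshold under any of the 20 alternatives to the main setting, nor did any of the 116 other cell cycle genes. The count over all genes, 3 in the main setting, was 1 with the 20000 strongest peaks, 21 with a window of 500 bp, 1 with every deposited summit, 34 with normal scores, 13 with GC-corrected ranks, and 0 to 14 on leaving out 1 library, highest without UNx 3; it was 589 over 74781 merged regions, which are other units. Deviations from the group means correlated at 0.0421, −0.0655 and 0.0358 between libraries of the same replicate number. These values show no pairing by number, but cannot exclude one. With the replicate block 2 genes passed and 7 of the 45 had an unadjusted limma p under 0.05, where 13.3% of all genes did. With the replicate block and GC-corrected ranks 0 genes passed. The median difference of the 45 genes was 0.401 with all deposited peaks, and −0.709 to 0.399 on leaving out 1 library. With the 20000 strongest peaks only 40 of the 45 were tested, with percentiles taken within the shorter lists. Their median difference was −1.68, which is on another scale and set of genes. Of the named genes, 4 changed sign: Cdk1 (−1.09 by fold enrichment), Ccnd1 (−7.02 to 0.257 on leaving out 1 library, above 0 without Sham 1), Cdk4 (−0.703 to 3.89, below 0 without Sham 3) and Mki67 (−5.14 to 0.399, above 0 without UNx 2). The class median of mitosis turned to −0.324 with GC-corrected ranks. That of inhibitors was −6.90 with the 20000 strongest peaks, where Cdkn1a and Rbl1 were not tested. It then rests on Cdkn1b and Rb1, both also lower in the main setting, and is not a reversal of the whole class. Mcm2, Chek1 and Plk1 kept an unadjusted limma p under 0.05 in all 21 settings, and Cdkn1a in 15 of 19. The settings reuse the same libraries, and these genes already had low p in the main fit, so the counts are not independent support. The limma adjusted p of Mcm2 ran from 0.0666 to 0.393. The cause of these changes was not tested. The peaks come without read counts, so what depth limits could not be measured.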
